A study of Mus musculus with 37 samples.

Results

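The comparison described here set splenocytes co-cultured with washed RAW264.7 macrophages against splenocytes kept in the conditioned medium of such macrophages. Its members were chosen from the sample titles as the 12 libraries of washed co-culture and the 11 libraries of conditioned medium, which together are 23 of the 37 libraries of the series. No measured value entered this choice. The 4 conditions of the RAW264.7 cells, which combine oxygen and SPP1, were given equal weight in each arm.

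Splenocytes came from wild-type FVB mice and were cultured for 48 h, and brefeldin A was added to all wells before collection. The RAW264.7 line, which is of mouse origin and macrophage-like, had been kept for 72 h beforehand in 21% oxygen (normoxia) or 1% oxygen (hypoxia), without SPP1 or with SPP1 at 1 µg/mL. In washed co-culture the splenocytes met the RAW264.7 cells after their medium had been washed away, with 3 libraries in each of the 4 conditions. In conditioned medium the splenocytes received the culture medium of RAW264.7 cells without the cells, with 3 libraries in each condition except normoxia without SPP1, which had 2. The remaining libraries were 12 from co-culture with unwashed RAW264.7 cells and 2 from naive splenocytes, and these are used here only as reference levels. All added macrophages in the comparison thus came from 1 established line, and the recipient cells were a mixed spleen suspension of unsorted cell types.

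Macrophages can act on lymphocytes through surface ligands that need contact, and through secreted cytokines, metabolites and matrix proteins that are carried in the medium. SPP1, also called osteopontin, is a secreted phosphoprotein that binds CD44 and several integrins and is made in large amounts by tumor-associated macrophages. Washing removes what has accumulated in the medium, although the cells can go on secreting during the co-culture. The arms therefore differ in the presence of living RAW264.7 cells as well as in the exposure to earlier secreted products. Added SPP1 was part of that medium, so any that remained was carried into the medium arm and washed away in the washed arm. The SPP1 conditions thus need not mean the same exposure of the splenocytes in both arms.

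Each measured row carries a human Ensembl ID, because the mouse reads had been aligned to the human GRCh38 assembly. Only mouse reads similar enough to the human sequence can be counted in this way, so it is uncertain which mouse gene a given ID stands for. The counts are not paired with gene symbols, and 0 of the IDs occurred in the mouse gene table at hand. IDs are therefore given without a symbol, a function or a position, lists of pathway genes and cell type markers could not be applied, and the labelled identity of the splenocytes could not be checked against markers. Whether RAW264.7 RNA contributed to the washed co-culture libraries was not tested for the same reason.

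Sequencing depth was similar in both arms, but the washed libraries were less diverse. Total counts ranged from 691539 to 1337314 in the washed arm and from 897879 to 1319225 in the medium arm, with medians of 1069294 and 1048537. IDs with at least 1 count numbered 8699.58 ± 614 (SD, n = 12) in washed co-culture and 9551.27 ± 493 (SD, n = 11) in conditioned medium, a difference of -851.7 (2-sided permutation test, adjusted p = 6e-05 over 3 library measures). The 10 most abundant IDs of each library held 20.9% ± 1.99 (SD, n = 12) of the washed counts and 15.2% ± 0.659 (SD, n = 11) of the medium counts, and the lowest washed library at 18.9% lay above the highest medium library at 16.5% (permutation test, adjusted p = 6e-05, from the smallest p of 2e-05 that these resamples can give). The mean total differed by -28717.9 counts, which was within the spread of the libraries (permutation p = 0.686).

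Several libraries stood apart from others of their own arm. Levels are given as CPM, the count of an ID scaled to a library size of 1e+06. On the first principal component of log2 CPM, carrying 45.8% of the variance over the 23 libraries, 9 medium libraries lay between -52.0 and -36.5 and all 12 washed libraries between 15.8 and 60.7. The 2 remaining medium libraries, replicate 1 of hypoxia without SPP1 and replicate 3 of normoxia without SPP1, lay between these groups at -7.30 and -5.99. On the second component, which carried 12.9%, washed hypoxia with SPP1 replicate 1 and washed normoxia with SPP1 replicates 1 and 2 reached -43.5, -47.6 and -26.5. Washed hypoxia without SPP1 replicate 2 lay at -0.50, and the other 8 washed libraries lay between 12.2 and 25.5. Because the 2 medium libraries were without SPP1 and 3 of the 4 washed ones were with SPP1, the main counts and the values of the named IDs that they move are also given without them.

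**Figure D1:**
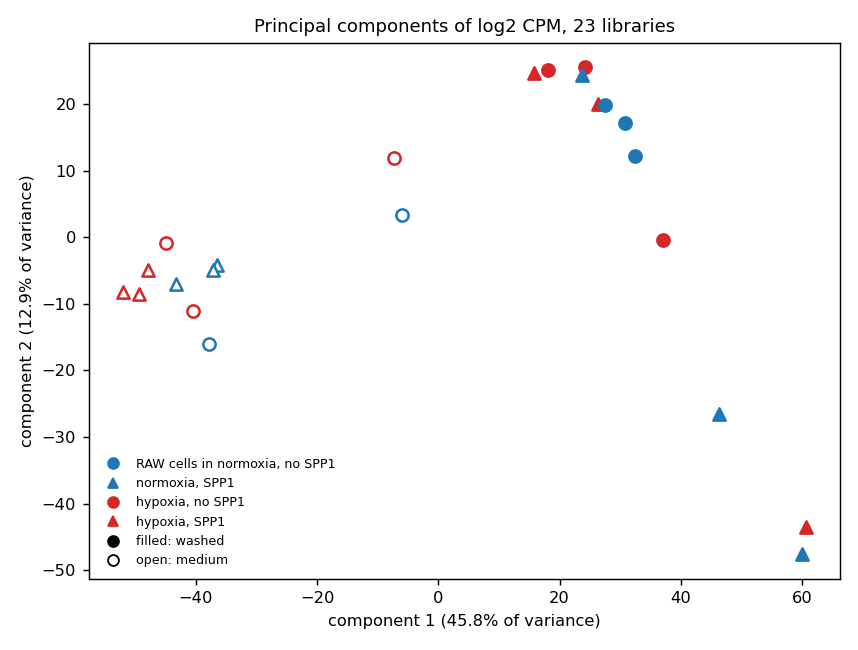
First and second principal components of log2 CPM in the 23 libraries, with washed co-culture as filled and conditioned medium as open symbols, color for oxygen and shape for SPP1. The first component separates the arms, with 2 medium libraries near -7.30 and -5.99, and 4 washed libraries leave the cluster of the other 8 along the second.

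Libraries from washed co-culture and from conditioned medium differed widely in their transcript profiles. Of 5193 IDs tested, 1483 were higher and 1566 lower in washed co-culture, so that 3049 passed edgeR's quasi-likelihood test at an adjusted p under 0.05, which is 58.7% of those tested. IDs that were lower differed by larger folds than IDs that were higher. The median log2 fold change (washed minus medium) was 0.99 among the higher IDs, with a range from 0.26 to 6.12, and -1.22 among the lower IDs, with a range from -8.46 to -0.24. A change of more than 8-fold was found in 30 of the higher IDs (2.02%) and in 110 of the lower IDs (7.02%), and a change of more than 2-fold in 733 (49.4%) and 995 (63.5%), respectively. The median over all IDs tested was -0.03 on the same log2 scale.

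**Figure D2:**
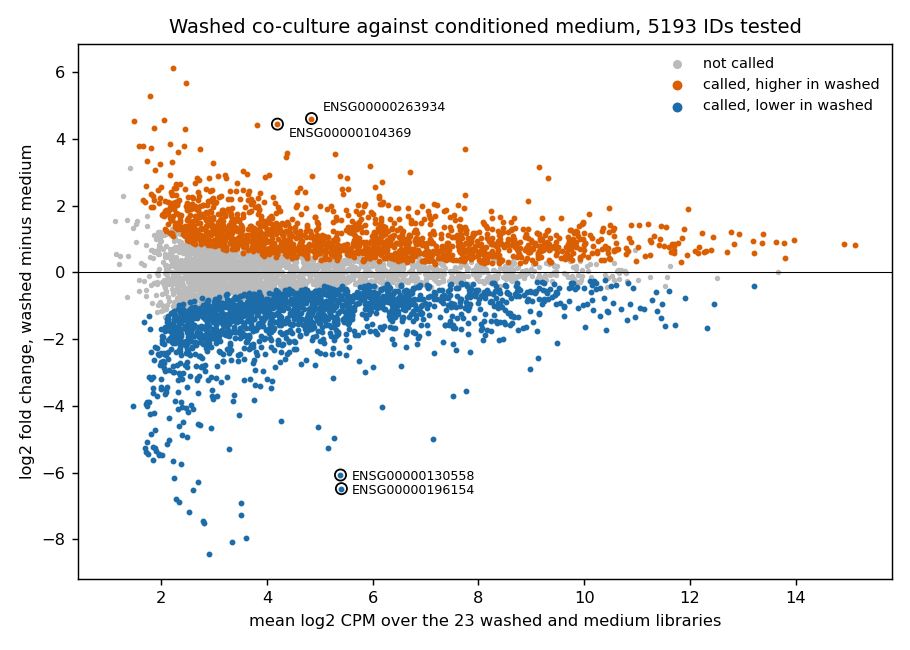
Log2 fold change (washed minus medium) against mean log2 CPM for the 5193 IDs tested, with IDs higher in washed co-culture in orange, IDs lower in blue and IDs that did not pass in grey. The 4 named IDs are circled, and the lower side reaches -8.46 while the higher side reaches 6.12.

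The direction of the difference varied with transcript abundance. When the IDs were divided by mean level into 4 groups of equal size, the least abundant group, with a median of 4.97 CPM, held 232 higher and 369 lower IDs, whereas the most abundant group, with a median of 264 CPM, held 568 higher and 369 lower ones. The share that passed the test rose from 46.3% in the least abundant group through 51.2% and 65.2% to 72.2% in the most abundant, while the median standard error of the log2 fold change fell from 0.45 to 0.15. Precision therefore moved with abundance, and low IDs needed larger folds to pass.

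The called IDs accounted for a large part of each library. The 1483 higher IDs held a median of 68.3% of the counts in washed libraries (63.7% to 75.5%) and 43.4% in medium libraries (41.8% to 55.8%). The 1566 lower IDs held 13.8% (9.79% to 16.6%) and 34.3% (24.4% to 37.4%), respectively. These IDs were selected on this difference, so the gap between the arms is a description. The unwashed and naive libraries entered neither arm of the comparison, and their shares lay between those of the arms at the median. The higher IDs held 63.7% in unwashed co-culture (57.3% to 70.7%) and 49.9% in naive splenocytes (46.6% to 53.2%), and the lower IDs held 16.4% (13.2% to 20.4%) and 26.0% (24.4% to 27.6%). In a bulk library, fewer cells of a type and less RNA per cell cannot be told apart, so these shares do not say whether cells were lost or changed their transcription.

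**Figure D3:**
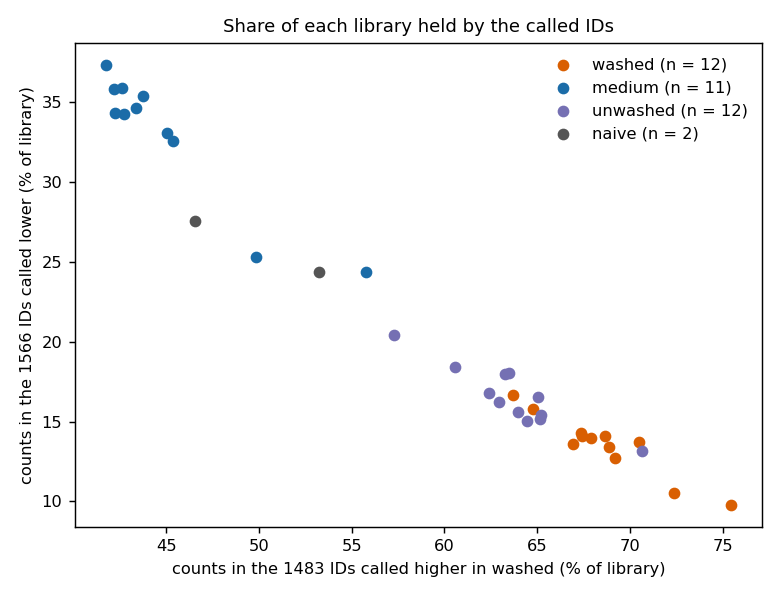
Share of each library's counts in the 1483 IDs called higher (horizontal axis) and in the 1566 IDs called lower in washed co-culture (vertical axis), 1 point per library. Washed and medium libraries lie at opposite ends, from which the IDs were chosen, unwashed libraries reach from 57.3% to 70.7% on the horizontal axis, and the naive libraries lie at 46.6% and 53.2%.

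A strict separation of the arms was less common than a call. Every washed library exceeded every medium library at 152 IDs, which is 2.93% of those tested, and every washed library lay below every medium library at 188 IDs, which is 3.62%. All of these had passed the test. The 2 medium libraries that stood apart were the 2 lowest medium libraries at 68 of the 188 IDs (36.2%), compared with 559 of all 5193 IDs (10.8%), and the 2 highest at 47 of the 152 IDs (30.9%), compared with 434 of all IDs (8.36%). At those IDs they were thus the medium libraries nearest to the washed ones. They had been singled out on the component that separates the arms in the same data. This nearness therefore follows from that choice and is a description. Among the 8 washed and 9 medium libraries that did not stand apart, the counts were 626 (12.1%) and 657 (12.7%). These are over fewer libraries, and the rise follows in part from the same choice.

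The IDs named below are the first 2 in each direction by the size of the log2 fold change, among the 1800 IDs (943 higher, 857 lower) that passed the test, kept 1 sign in all 4 conditions and averaged a log2 CPM of 4 or more over the 23 libraries. They were chosen on this contrast, so their fold changes and adjusted p-values are a description. Of the 2 higher ones, ENSG00000104369 was the more evenly raised, and it entered the test through co-culture libraries, where it was high. It reached 77.7, 73.5 and 75.6 CPM in washed normoxia without SPP1, 59.6, 113 and 68.1 CPM in washed normoxia with SPP1, 44.3, 159 and 59.0 CPM in washed hypoxia without SPP1, and 19.3, 49.6 and 65.0 CPM in washed hypoxia with SPP1. In conditioned medium 9 of 11 libraries held at most 3 counts, corresponding to 0.87 to 2.77 CPM, and the 2 libraries that stood apart held 16.0 CPM (normoxia without SPP1, replicate 3) and 5.40 CPM (hypoxia without SPP1, replicate 1). All 12 washed libraries lay above all 11 medium libraries.

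The mean level of ENSG00000104369 was 72.0 ± 35.3 CPM (SD, n = 12) in washed co-culture and 3.46 ± 4.35 CPM (SD, n = 11) in medium. Its log2 fold change was 4.45 (SE 0.32, edgeR's quasi-likelihood test, adjusted p = 1.44e-13), and within conditions it was 3.06 in normoxia without SPP1, 5.63 in normoxia with SPP1, 4.78 in hypoxia without SPP1 and 4.33 in hypoxia with SPP1, each past the threshold. Without the 2 medium and 4 washed libraries that stood apart the value over all conditions was 4.99, and that in normoxia without SPP1 was 5.17. Unwashed co-culture held 48.1 ± 14.9 CPM (SD, n = 12), and the log2 fold change of washed against unwashed was 0.58, which did not pass (edgeR, adjusted p = 0.110). The naive libraries held 5.86 and 3.91 CPM.

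ENSG00000263934 also separated the arms, but most of its size came from 4 washed libraries. These were the 4 that stood apart, with 653 CPM in hypoxia with SPP1 replicate 1, 692 and 962 CPM in normoxia with SPP1 replicates 1 and 2, and 898 CPM in hypoxia without SPP1 replicate 2. The other 8 washed libraries held 16.5 to 32.1 CPM and the 11 medium libraries 1.93 to 15.4 CPM, so the arms did not overlap even without the 4. The medians were 29.0 CPM in washed co-culture and 7.92 CPM in medium.

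The log2 fold change of ENSG00000263934 was 4.62 (SE 0.72, edgeR, adjusted p = 1.29e-06), and it was 1.73 (adjusted p = 0.00233) in the fit without the 4 washed libraries. By condition it was 2.49 in normoxia without SPP1, which did not pass (edgeR, adjusted p = 0.311), 6.13 in normoxia with SPP1, 4.80 in hypoxia without SPP1 and 5.04 in hypoxia with SPP1. Without the 4 washed libraries it passed in 0 of the 4 conditions, with values from 0.87 to 2.50. The naive libraries, at 39.0 and 83.4 CPM, lay above all medium libraries for this ID. They also lay above every washed library other than the 4 that stood apart. Unwashed libraries ranged from 10.4 to 440 CPM with a median of 18.4 CPM. The 440 CPM came from a single library, unwashed hypoxia without SPP1 replicate 2. Washed against unwashed co-culture gave 2.58 on the log2 scale (edgeR, adjusted p = 0.00749). Most of this value rested on the 4 washed libraries. Without them it was -0.32, but that fit kept the unwashed library at 440 CPM, so its sign is not read here.

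ENSG00000196154 and ENSG00000130558 were almost restricted to conditioned medium among the 23 libraries. ENSG00000196154 reached 583, 531 and 692 CPM in medium of normoxic cells with SPP1, 957, 720 and 904 CPM in medium of hypoxic cells with SPP1, 607 and 534 CPM in medium of hypoxic cells without SPP1 (replicates 2 and 3), and 389 CPM in medium of normoxic cells without SPP1 (replicate 2). The 2 medium libraries that stood apart held only 13.9 and 34.2 CPM. Washed libraries held 0 to 11.2 CPM, from 0 to 12 counts, and every one of them lay below every medium library.

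Means of ENSG00000196154 were 5.08 ± 3.36 CPM (SD, n = 12) in washed co-culture and 542 ± 304 CPM (SD, n = 11) in medium. The log2 fold change was -6.48 (SE 0.47, edgeR, adjusted p = 1.64e-13), and in the order normoxia without and with SPP1, then hypoxia without and with SPP1, it was -5.49, -6.37, -6.27 and -7.80. In unwashed co-culture the level differed with the oxygen of the RAW264.7 cells, at 0.771 to 6.26 CPM after normoxia and 50.5 to 151 CPM after hypoxia. Washed against unwashed co-culture gave -1.76 on the log2 scale (edgeR, adjusted p = 0.0637), and without the 4 washed libraries -1.92 (adjusted p = 0.203), and the naive libraries held 5.86 and 33.9 CPM.

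ENSG00000130558 followed the same libraries. It reached 499, 476 and 562 CPM in medium of normoxic cells with SPP1, 869, 645 and 859 CPM in medium of hypoxic cells with SPP1, 776 and 318 CPM in replicates 2 and 3 of medium of hypoxic cells without SPP1, and 367 CPM in replicate 2 of medium of normoxic cells without SPP1. The medium libraries that stood apart held 18.5 and 27.9 CPM, and the washed libraries 0 to 15.8 CPM, from 0 to 17 counts. Again the arms did not overlap.

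For ENSG00000130558 the means were 6.04 ± 4.49 CPM (SD, n = 12) in washed co-culture and 493 ± 295 CPM (SD, n = 11) in medium, and the log2 fold change was -6.07 (SE 0.47, edgeR, adjusted p = 8.95e-13). By condition, in the same order, it was -4.51, -6.93, -6.04 and -6.82. Unwashed co-culture held 0 to 10.1 CPM after normoxia and 85.5 to 241 CPM after hypoxia, washed against unwashed co-culture gave -1.91 (edgeR, adjusted p = 0.050001), which did not pass, and the naive libraries held 5.86 and 5.21 CPM. For both IDs the unwashed hypoxic libraries lay above all washed libraries and above the 2 medium libraries that stood apart, and below the other 9 medium libraries.

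**Figure D4:**
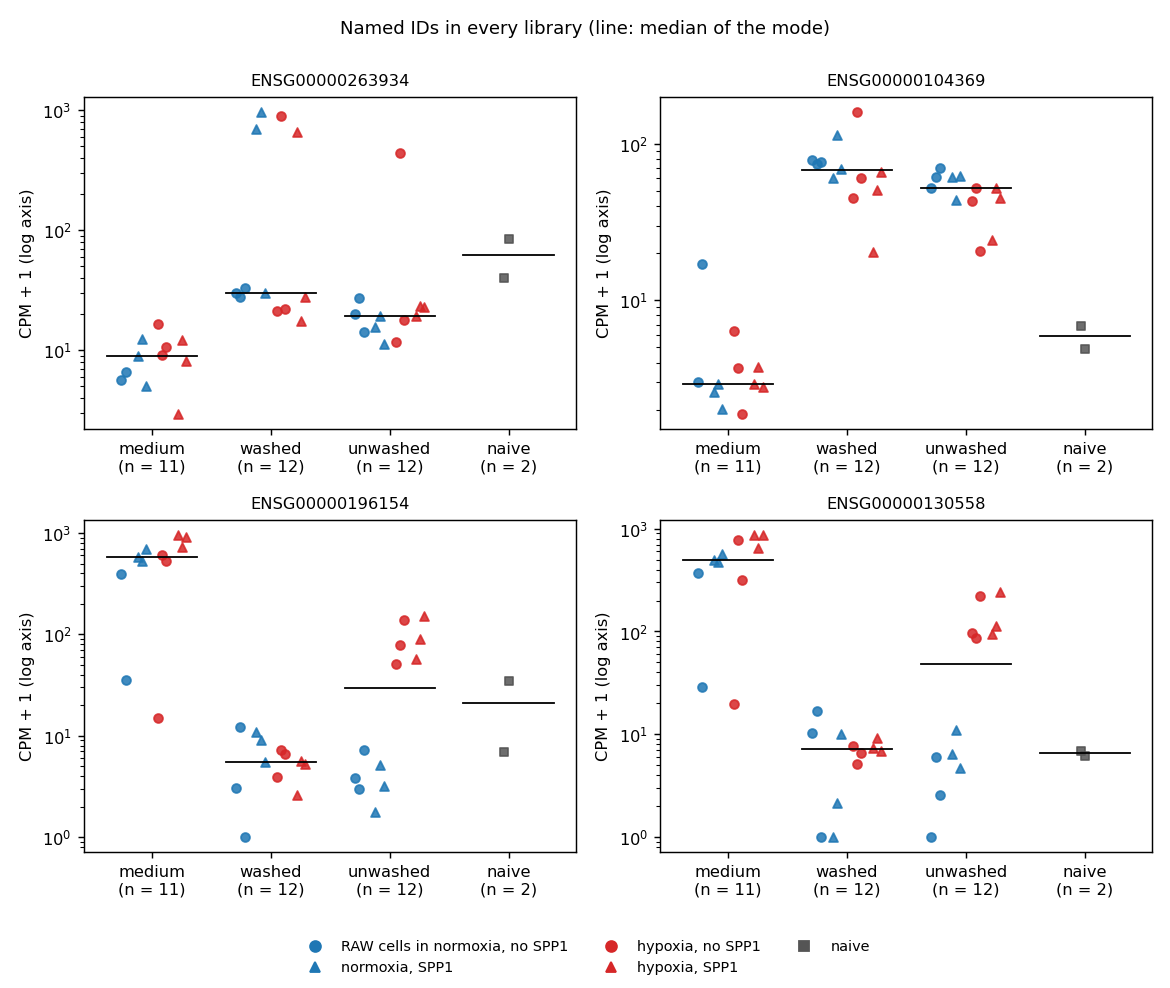
CPM + 1 on a log axis for the 4 named IDs in all 37 libraries, grouped by medium, washed, unwashed and naive, with color for oxygen, shape for SPP1 and a line at the median of each mode. The 12 washed libraries are separate from the 11 medium libraries in each panel, 2 medium libraries without SPP1 lie nearest to the washed ones in the lower panels, and 4 washed libraries between 653 and 962 CPM carry the upper left panel.

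Some IDs were near the limit of counting in 1 arm. At 5 of the 5193 IDs tested every washed library held at most 3 counts and every medium library more than 3. The reverse was seen at 0 IDs. With the condition on a single arm, 82 of the 5193 IDs stayed at 3 counts or fewer throughout the washed libraries, and 35 throughout the medium libraries. A count of 3 stood for 2.53 to 4.97 CPM in washed libraries and for 2.01 to 3.06 CPM in medium libraries. The limit was thus looser in the washed arm, so the numbers of the 2 arms are not compared. Such IDs entered the test through the libraries where they are high, so whether they were called is not read here. Levels under about 3 counts per library cannot be told from 0 at these depths, and the fitted log2 fold changes of such IDs depend on the prior count.

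The 5 IDs were named after their values were seen and were chosen on this difference, so their fitted values are a description. ENSG00000037241 had the highest level, with 8 of 12 washed libraries at 0 and no more than 2 counts in any, against 3.85 to 160 CPM and a median of 99.1 CPM in medium (log2 fold change -7.95, SE 0.59). Its 2 lowest medium libraries were those that stood apart, at 3.85 and 22.3 CPM, and the other 9 held at least 86.9 CPM. In unwashed co-culture no normoxic library held more than 1 count of ENSG00000037241, and the hypoxic libraries held 30.3 to 148 CPM. The level was thus higher after hypoxia, as for the lower IDs above. Unlike for those IDs, the hypoxic range reached into that of the other 9 medium libraries.

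ENSG00000115170 held at most 2 counts in any washed library and 3.08 to 37.7 CPM in medium, with 3.08 and 3.49 CPM in the libraries that stood apart and at least 25.1 CPM in the other 9. Its log2 fold change was -4.68 (SE 0.50). ENSG00000103507 held at most 2 counts in washed libraries and 4.62 to 20.7 CPM in medium, with a log2 fold change of -4.88 (SE 0.55).

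ENSG00000132382 and ENSG00000099956 were the lowest of the 5, with at most 3 counts in any washed library. Their medium levels were 7.11 ± 3.00 and 6.90 ± 1.69 CPM (SD, n = 11), and their fitted log2 fold changes were -2.82 (SE 0.50) and -2.99 (SE 0.50). In the shallowest washed library 3 counts stood for 4.97 CPM. Measured from that level, these medium means bound the difference only at 1.43-fold and 1.39-fold or more. The same bound was 19.4-fold for ENSG00000037241, 5.17-fold for ENSG00000115170 and 2.38-fold for ENSG00000103507. The medium libraries that stood apart lay within the range of the other medium libraries for ENSG00000132382 and ENSG00000099956, at 4.62 and 8.37 CPM and at 6.17 and 9.07 CPM, in contrast to the values for ENSG00000037241.

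The difference between washed co-culture and medium was then taken within each condition of the RAW264.7 cells, and the 4 contrasts share no library. In normoxia without SPP1, with 3 washed and 2 medium libraries, 241 IDs were higher and 447 lower, 13.2% of those tested. In normoxia with SPP1, 850 were higher and 880 lower (33.3%). In hypoxia without SPP1, 485 were higher and 503 lower (19.0%), and in hypoxia with SPP1, 863 were higher and 902 lower (34.0%). Counts were larger with SPP1 than without in both oxygen levels, and both medium libraries that stood apart were in the conditions without SPP1. Without those 2 medium and the 4 washed libraries, washed normoxia with SPP1 kept only replicate 3 and medium normoxia without SPP1 only replicate 2. Calls in normoxia then rest on a lone library in each contrast and are not compared. The median absolute log2 fold change there was 0.86 without and 0.76 with SPP1, the opposite order. In hypoxia, where no group was reduced to a lone library, the counts were 1205 and 1672 without and with SPP1. Only the condition without SPP1 had lost a medium library there, so these counts rest on unlike numbers of libraries and are not compared. The median absolute log2 fold changes in hypoxia were close, at 0.77 without and 0.80 with SPP1.

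**Figure D5:**
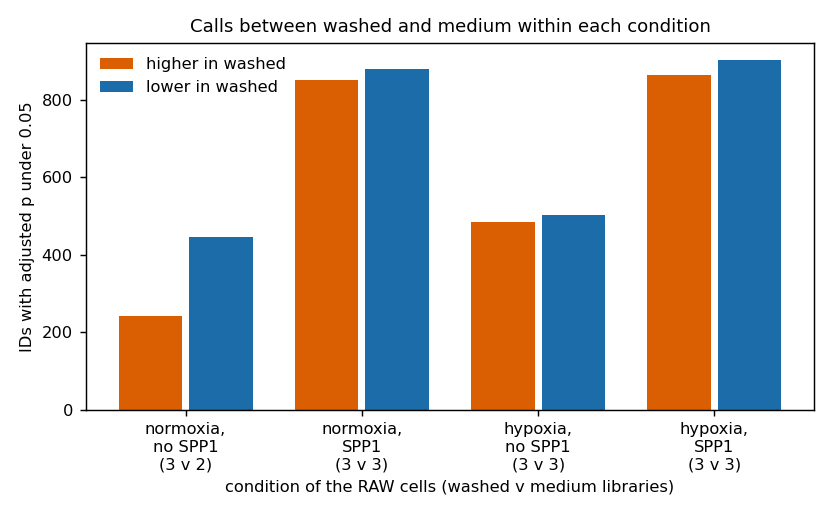
Number of IDs higher (orange) and lower (blue) in washed co-culture than in conditioned medium at an adjusted p under 0.05, within each condition of the RAW264.7 cells. The bars reach 850 to 902 in the conditions with SPP1 and 241 to 503 in those without, and normoxia without SPP1 rests on 2 medium libraries.

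The direction of the difference was shared by the 4 conditions at most IDs. The log2 fold change had the same sign in all 4 at 3266 of 5193 IDs (62.9%) and at 2790 of the 3049 called IDs (91.5%), which were called on the mean of the same 4 values. An adjusted p under 0.05 in each of the 4 conditions was reached by 376 IDs, 7.24% of those tested, with 135 higher and 241 lower, and in at least 1 condition by 2491 IDs (48.0%). No ID, 0 of 5193, was called higher in 1 condition and lower in another.

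Across the 5193 IDs, Pearson's r between the log2 fold changes of 2 conditions ranged from 0.683 for normoxia without and with SPP1 to 0.816 for normoxia and hypoxia, both with SPP1, as a description across IDs that are not independent. The median absolute log2 fold change was 0.67 and 0.87 in normoxia without and with SPP1, and 0.68 and 0.88 in hypoxia without and with SPP1. The median standard errors were alike in the 4 conditions, from 0.50 to 0.55. Without the 2 medium and 4 washed libraries the median absolute log2 fold changes were 0.86 and 0.76 in normoxia and 0.77 and 0.80 in hypoxia, and r ranged from 0.737 to 0.781.

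Whether oxygen or SPP1 altered the difference was tested as an interaction. For oxygen, edgeR called 0 IDs, with 184 at an unadjusted p under 0.05 (3.54%) and a smallest adjusted p of 0.905, and DESeq2 called 0. For SPP1, edgeR called 0 IDs, with 538 at an unadjusted p under 0.05 (10.4%) and a smallest adjusted p of 0.133, and DESeq2 called 24, of which 22 had a larger washed minus medium value with SPP1. Without the 2 medium and 4 washed libraries that stood apart, edgeR called 0 IDs for SPP1, with 137 at an unadjusted p under 0.05.

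The spread within a group was larger in washed co-culture. The median standard deviation of log2 CPM within groups was 0.602 in washed and 0.452 in medium libraries, and it was the larger of the 2 in the washed arm at 70.5% of IDs. Without the 4 washed libraries it was 0.380, and without the 2 medium libraries 0.362.

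Set against unwashed co-culture, in which the medium of the RAW264.7 cells stayed in the well, fewer IDs were called than against conditioned medium. There 216 IDs were higher and 160 lower in washed co-culture, 7.24% of those tested, and both comparisons share the 12 washed libraries. The IDs called higher against medium had a median of 5.95 log2 CPM in washed, 5.68 in unwashed, 5.25 in naive and 4.95 in medium libraries. For the IDs called lower against medium these medians were 3.91, 4.28, 4.34 and 5.15. The number of IDs called against unwashed co-culture was 63 without the 4 washed libraries that stood apart and 56 without 3 of them.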

How the data were processed

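RNA of 37 splenocyte cultures was sequenced with a 3′ kit (QuantSeq FWD, single reads, molecular identifiers). Per the labels and the series text, the authors trimmed reads with bbduk, used STAR 2.7.10b for alignment to GRCh38, and obtained gene-level counts with featureCounts (Rsubread 2.0.3). The deposited table holds raw counts, unnormalized. Annotation release, strand setting, treatment of multiply aligned reads and use of molecular identifiers are not given in the sources used here, so counts may include PCR copies. The labels give an RNA integrity threshold of 7 and also a range that reaches below it.

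Counts of 60708 rows, 22657 of them with a count, were analysed in R 4.3.3 with edgeR 4.0.16. TMM scaling, filterByExpr (minimum count 10, 5193 IDs kept, 97.8% to 99.4% of counts) and a quasi-likelihood fit of 13 group means over 37 libraries were followed by contrasts of equally weighted conditions, with Benjamini-Hochberg adjustment over all IDs and a threshold of 0.05. CPM values use the TMM library sizes, and log2 CPM a prior count of 2. Library measures were compared by a 2-sided permutation test of the means (100000 resamples, scipy 1.17.1). The fit was also run on simulated counts with 191 changed IDs among 4863 tested. It recovered 60.6% of the 2-fold and 96.9% of the 4-fold changes, with 7 false calls. Far fewer IDs were changed there than were called in the data, so the run does not show how the scaling behaves with so many. Labels give replicate numbers but do not say which libraries share a spleen or a culture, so p-values measure the spread between these libraries, which may be in part technical. Same-numbered washed and medium libraries of a condition did not deviate together (11 correlations from -0.19 to 0.10), so the numbers were not treated as pairs. Shared deviation by number within an arm, or with the unwashed libraries, was not tested. No libraries of a group agreed within sampling noise.

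The planned rule named the leading IDs per direction (mean log2 CPM of at least 4, adjusted p under 0.05, same sign in 4 conditions, ranked by absolute log2 fold change), with list members and fixed genes, reduced to the first 2 per direction where no table gives names, and 5 further IDs were named after their values were seen. Gene lists, markers and fixed genes planned by symbol were not analysed. The members, lists and libraries left out in alternatives were chosen with earlier results of these data known. Alternatives were other scalings, filters, DESeq2 1.42.0, a replicate block, equal library weights and fits without single or several libraries.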

Additional observations from a re-analysis of the deposited data

How the results depend on the processing

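Over the alternatives, the count of 3049 IDs stayed between 2794 and 3209, except with a minimum count of 50, where 1820 of 2538 tested IDs were called; 0 IDs were called in the opposite direction under any of them. Of the 3049, 2490 (81.7%) were called with the same sign in each of the 23 fits that left out 1 library, and 2107 (69.1%) also in the 10 other fits that tested all of them. The split by direction moved with the scaling. It was 1370 higher and 1672 lower with RLE scaling, and 1558 higher and 1507 lower with upper-quartile scaling. The replicate block gave 3018 calls, 2998 of them shared, and changed no call of the 4 IDs named by rule against medium, over all conditions or within them, and no interaction count. Against unwashed co-culture it moved ENSG00000196154 (-1.81, adjusted p = 0.0448) and ENSG00000130558 (-1.94, adjusted p = 0.0454) past the threshold. Leaving out 1 library gave 2808 to 3082 calls for the whole comparison, 204 (without medium normoxia noSPP1 replicate 2) to 823 for normoxia without SPP1, 558 (without medium hypoxia noSPP1 replicate 2) to 1123 for hypoxia without SPP1, 227 (without washed hypoxia noSPP1 replicate 2) to 737 (without washed normoxia SPP1 replicate 3) against unwashed co-culture, 0 to 2 for the oxygen interaction and 0 to 97 (without washed normoxia SPP1 replicate 3) for the SPP1 interaction. Where 1 medium library of normoxia without SPP1 was left out, the lone library was assumed to vary like the other groups. Without the 3 or 4 washed libraries that stood apart, washed normoxia with SPP1 likewise kept only replicate 3. Its calls in these fits rest on that lone library. With no filter, normoxia without SPP1 gave 431 calls, the oxygen interaction 3 and the SPP1 interaction 60. DESeq2 gave 24 calls for the SPP1 interaction and 569 against unwashed co-culture. Without 3 washed libraries that stood apart, normoxia with SPP1 gave 530 calls and washed against unwashed 56. Without 4, these were 574 and 63, and normoxia without SPP1 gave 1034. Without 2 medium and 4 washed libraries, normoxia gave 1253 calls without and 875 with SPP1, hypoxia 1205 without and 1672 with SPP1, and the difference in total counts turned to 97384.8. For ENSG00000263934 the log2 fold change ran from 1.73 to 5.15 over 35 alternatives, lowest without the 4 washed libraries. Against unwashed co-culture it turned to -0.32 without them, with the unwashed library at 440 CPM kept. The fits of the named IDs within conditions and against unwashed co-culture, and the counts and correlations without the libraries that stood apart, were chosen after seeing the data. The cause of these changes was not tested. At the depth of these libraries, IDs under roughly 3 counts cannot be told from 0.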

Other observations

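Oxygen of the RAW264.7 cells moved with the separation of the arms in libraries that did not enter it. In unwashed co-culture, the mean log2 CPM was higher after hypoxia than after normoxia at 147 of the 188 IDs (78.2%) at which every medium library lay above every washed library, compared with 2596 of all 5193 IDs. The median difference, hypoxia minus normoxia, was 0.31 at the 188 IDs and 0.00 over all IDs. At the 152 IDs at which every washed library lay above every medium library, the mean was higher after hypoxia at 40 (26.3%), with a median difference of -0.17. These counts are descriptions and were not tested.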
